A study of Oryza sativa with 4 samples.

Results

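The 168 identifiers described here begin with EPlOING and had at least 2-fold higher values after 36 h of chilling than before it in both of 2 rice lines. They were chosen by 2 conditions in the deposited FPKM values (fragments per kilobase of length, scaled by library size). The FPKM was at least 10 in both 36 h libraries, and log2((FPKM at 36 h + 1)/(FPKM at 0 h + 1)) was at least 1 in each line. They are 168 of 47764 EPlOING identifiers and of 88509 identifiers in all, of which 40745 begin with BGIOSGA. Of the 466 EPlOING identifiers past the FPKM condition they are 36.1%. The values that chose them are the 36 h and 0 h values of both lines, so the size and direction of these ratios are a description and were not tested.

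The study set a chilling-tolerant rice line against a chilling-sensitive one. DC90 is a chromosome substitution line, in which part of the genome of a recurrent parent is replaced by that of a donor, and 9311 (also called YD6) is that sensitive parent. Both were seedlings at the 3-leaf stage, and whole plants were taken at 36 h of chilling and before it. RNA of 3 replicates was pooled in equal amounts for each line and time, so DC90 at 36 h, DC90 at 0 h, 9311 at 36 h and 9311 at 0 h have 1 library each. No difference below has a replicate check, and no p-value was computed. An unchilled library at 36 h was not analysed here, so effects of chilling cannot be told apart from those of age or hour. In whole plants, more cells of a type and more RNA per cell cannot be told apart either. For the temperature and the hour of sampling, no value is given in the sources used here.

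Rice is a plant of warm climates, and seedlings are among its chilling-sensitive stages. Cooling slows enzymes, stiffens membranes and disturbs photosynthesis, and the plant answers with calcium signals and with transcription factors, among them the CBF/DREB family, that raise protective genes. Messenger RNAs make up the protein-coding part of that answer, and transcripts that encode no protein can change with temperature as well. The sources used here do not say what kind of transcript the EPlOING prefix stands for. None of the 168 identifiers was found in the reference gene table, so they have no gene name, function or position here and no sequence is printed. They are described by their number, their recovered length, their level and their reads.

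The libraries held between 10580163 and 11800685 reads, as recovered from the steps of the FPKM values. All EPlOING identifiers together took 0.257% of the reads of DC90 at 36 h, 0.182% of DC90 at 0 h, 0.240% of 9311 at 36 h and 0.179% of 9311 at 0 h. The sum rests on few transcripts, since 4027 of the 47764 EPlOING identifiers were above 0 in any library. The 168 identifiers had short recovered lengths, with a median of 65.5 bases, quartiles of 45 and 98 bases and a range of 18 to 252 bases. These are the smallest lengths and reads that could be fitted, and where both share a factor the true lengths and reads are larger multiples. At such lengths an FPKM of 10 stands for few reads, from 1.90 to 26.7 across the 168 identifiers in DC90 at 36 h, with a median of 6.93. Whether their reads are shared with longer overlapping transcripts or with near-identical copies was not tested, and it is not stated whether counting used strand.

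The 168 identifiers were at a low level before chilling and at a moderate one after it in both lines. Their median FPKM was 28.9 in DC90 at 36 h, against 4.07 in DC90 at 0 h. In 9311 the median FPKM was 31.9 at 36 h, against 4.62 at 0 h. The quartiles do not overlap between times, at 18.6 and 56.1 in DC90 at 36 h against 1.07 and 10.8 in DC90 at 0 h, and the same holds for 9311, at 18.0 and 57.1 at 36 h against 1.5 and 11.3 at 0 h. That separation follows from how the identifiers were chosen. The highest FPKM was 2028 in DC90 at 36 h and 424 in DC90 at 0 h, and 2036 in 9311 at 36 h and 801 in 9311 at 0 h.

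**Figure D1:**
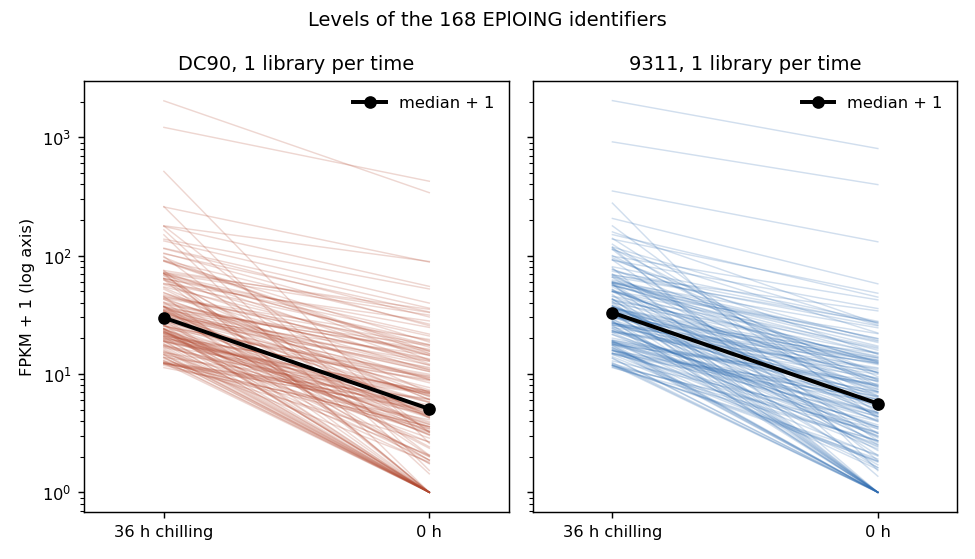
Each thin line joins the FPKM + 1 (log axis) of 1 of the 168 identifiers at 36 h of chilling and at 0 h, with DC90 on the left and 9311 on the right, and the black line joins the medians + 1. All lines run downward from 36 h to 0 h, which is how the identifiers were chosen; medians were 28.9 against 4.07 FPKM in DC90 and 31.9 against 4.62 FPKM in 9311.

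The 168 identifiers took a larger share of the EPlOING signal at 36 h than at 0 h, as the rule that chose them favours. Their reads summed to 8488 in DC90 at 36 h, against 1519 in DC90 at 0 h. In 9311 they summed to 7943 at 36 h, against 1669 at 0 h. Relative to library totals, the summed reads were 6.18-fold higher at 36 h in DC90 and 5.15-fold higher in 9311, with counting intervals of 5.86 to 6.54 and 4.89 to 5.43 (exact, 95%, counting error only). By summed FPKM it was 5.03-fold and 4.07-fold, and 5.46-fold in both lines without the 2 identifiers with most reads in the smaller 36 h library. The 168 were chosen on these ratios, so the intervals support no difference. Their FPKM made up 29.7% of the EPlOING sum in DC90 at 36 h, against 8.31% in DC90 at 0 h. In 9311 the share was 29.7% at 36 h, against 9.94% at 0 h. The summed FPKM of all other EPlOING identifiers was 1.08-fold its 0 h value in DC90 and 1.06-fold in 9311, a sum from which the raised identifiers were taken out and the lowered ones were not.

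The pool from which the rule could draw holds 466 EPlOING identifiers with an FPKM of at least 10 in both 36 h libraries. The 36.1% of this pool that the 168 make up is fixed by the rule itself. Under the same rule 1914 of 12332 BGIOSGA identifiers, or 15.5%, were raised in both lines. In the mirror image, EPlOING identifiers at least 2-fold lower at 36 h in both lines numbered 55 of 342 with an FPKM of at least 10 in both 0 h libraries, or 16.1%, and for BGIOSGA 1786 of 12511, or 14.3%. With a pool that gives both directions the same footing, an average FPKM of at least 10 over the 4 libraries, 140 of 533 EPlOING identifiers (26.3%) were higher and 47 (8.82%) lower in both lines. In that pool 13% of 13639 BGIOSGA identifiers were higher and 11.2% lower. EPlOING identifiers lay more to the raised side than BGIOSGA identifiers did in these 4 libraries.

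Many EPlOING identifiers were raised in 1 line only by the same limits. In DC90, 307 of 613 with an FPKM of at least 10 at 36 h were raised (50.1%), and in 9311, 299 of 598 were (50%). Of BGIOSGA identifiers, 2446 of 13143 (18.6%) were raised in DC90, 2787 of 12906 (21.6%) in 9311 and 1914 in both. The 168 are 54.7% of the 307 and 56.2% of the 299. Many of these calls rest on few reads. With at least 20 reads at 36 h, 122 EPlOING identifiers were raised in DC90, 121 in 9311 and 79 in both. An identifier outside the overlap is not shown to respond in 1 line alone, since the difference between responses was not tested.

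Responses ran from the 2-fold limit to more than 128-fold. The median log2 ratio was 2.26 in DC90, with quartiles of 1.61 and 3.65 and a highest value of 7.63. In 9311 it was 2.38, with quartiles of 1.53 and 3.56 and a highest value of 7.51. Over all 466 identifiers of the pool the medians were 0.80 in DC90 and 0.82 in 9311, and over the 298 not chosen 0.24 and 0.25. Of the 168, 74 were at least 4-fold higher in both lines, 37 at least 8-fold, 18 at least 16-fold, 5 at least 32-fold and 1 at least 128-fold. By the FPKM limit and the 1 added to each value, one listed at 0 at 0 h passes 8-fold in that line whatever its reads. Of the 37, 23 were listed at 0 in a 0 h library, and 22 had at least 20 reads in both 36 h libraries. The 1914 BGIOSGA identifiers under the same rule had medians of 1.62 in DC90 and 1.74 in 9311. The log2 ratio was the larger one in DC90 for 91 identifiers and in 9311 for 77, with a median difference of 0.08 (DC90 minus 9311) and quartiles of -0.72 and 0.82.

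**Figure D2:**
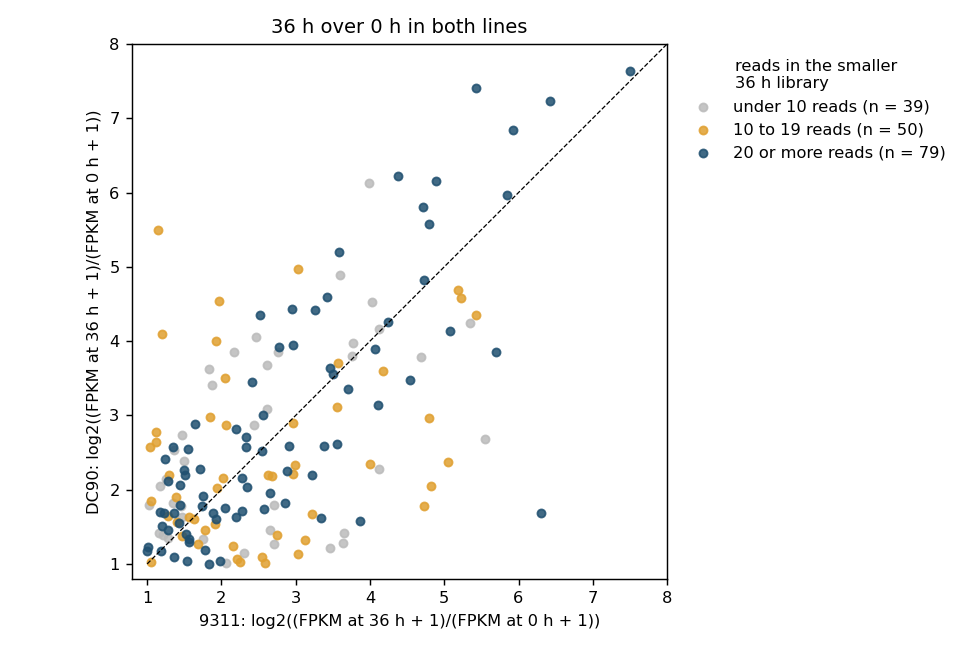
Each point is 1 of the 168 identifiers, with its log2 ratio of 36 h over 0 h in 9311 on the x axis and in DC90 on the y axis, coloured by the reads in its smaller 36 h library; the dashed line marks equal ratios. The 39 identifiers under 10 reads reach 6.13 in DC90 and the 79 with 20 or more reach 7.63, and points lie on both sides of the line, 91 above and 77 below.

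Reads limit how well the ratios are measured, both at 36 h and at 0 h. The smaller 36 h library gave a median of 18 reads and a lowest value of 3. It gave at least 20 reads for 79 identifiers, at least 50 for 34, at least 100 for 9 and under 10 for 39. For 123 of the 168 (73.2%) the counting interval of the ratio lay above 1 in both lines, and for 45 it reached 1 in at least 1 line. The identifiers were chosen on these same ratios, so the counts describe their depth and support no difference. Those 45 had a median length of 47 bases, and none of them had 20 reads in both 36 h libraries. Both intervals lay above 2 for 50 identifiers (29.8%) and above 4 for 20 (11.9%). These intervals hold counting error alone and leave out variation between plants. Restricted to EPlOING identifiers with at least 20 reads in both 36 h libraries, the rule was met by 79 of 211 (37.4%), close to the 36.1% without that limit, and by 1913 of 12318 BGIOSGA identifiers (15.5%). That limit acts only on the libraries where the chosen identifiers are high, so it cannot check the depth at 0 h. Only 12 of the 79 also had at least 20 reads in both 0 h libraries. The medians of the 79 were 2.28 in DC90 and 2.42 in 9311.

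The 12 identifiers with the most reads in their smaller 36 h library include 6 that were well above 0 before chilling and 6 that were at or close to 0. EPlOING00000026055, with 31 bases, was the highest of the 168, at 2028 FPKM in DC90 and 2036 FPKM in 9311 at 36 h, against 339 FPKM in DC90 and 801 FPKM in 9311 at 0 h. Both 36 h values are nearly equal, while DC90 at 0 h was the lowest of the 4 libraries. Its ratio of 36 h over 0 h was 5.98 in DC90 (interval 4.93 to 7.31) and 2.54 in 9311 (2.21 to 2.92). EPlOING00000027012, with 50 bases, was at 1210 FPKM in DC90 and 912 FPKM in 9311 at 36 h, against 424 FPKM in DC90 and 397 FPKM in 9311 at 0 h. It was already abundant before chilling in both lines. Its ratio was 2.86 in DC90 (2.46 to 3.32) and 2.30 in 9311 (1.96 to 2.70). EPlOING00000035847, with 49 bases, was at 257 FPKM in DC90 and 350 FPKM in 9311 at 36 h, against 87.1 FPKM in DC90 and 129.7 FPKM in 9311 at 0 h. Here DC90 was below 9311 at both times, and the ratios of 36 h over 0 h were 2.94 in DC90 and 2.70 in 9311.

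EPlOING00000047054, with 124 bases, had 178 FPKM in DC90 and 205 FPKM in 9311 at 36 h, against 88.2 FPKM in DC90 and 56.7 FPKM in 9311 at 0 h. It met the limit in DC90 by a narrow margin, with a log2 ratio of 1.002, against 1.83 in 9311. EPlOING00000031884, with 80 bases, had 104 FPKM in DC90 and 111 FPKM in 9311 at 36 h, against 24.6 FPKM in DC90 and 21.2 FPKM in 9311 at 0 h. Both lines were alike within counting error at both times, and the ratios of 36 h over 0 h were 4.23 (2.65 to 7.02) in DC90 and 5.25 (3.22 to 8.97) in 9311. EPlOING00000029725, with 115 bases, had 69.9 FPKM in DC90 and 98.9 FPKM in 9311 at 36 h, against 5.94 FPKM in DC90 and 6.63 FPKM in 9311 at 0 h. Its 0 h values rest on 8 and 9 reads, and its ratios were 11.8 (5.71 to 28.1) in DC90 and 14.9 (7.61 to 33.4) in 9311.

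**Figure D3:**
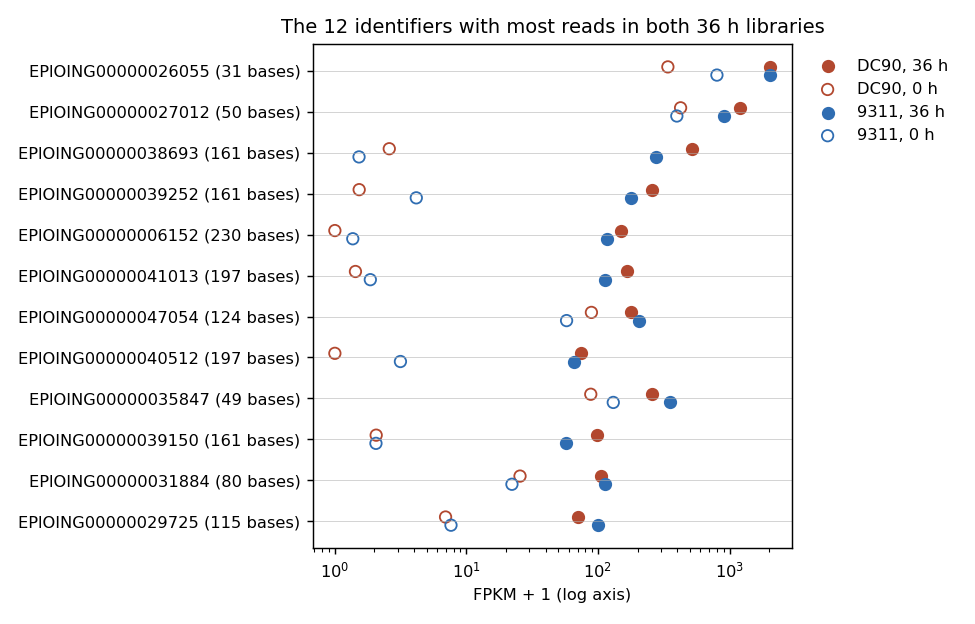
FPKM + 1 (log axis) of the 12 identifiers with the most reads in the smaller 36 h library, from most to fewest downward, with filled symbols for 36 h, open symbols for 0 h, red for DC90 and blue for 9311, 1 library each. In EPlOING00000026055 and EPlOING00000027012 the 0 h values are already 339 FPKM or more, while in 6 identifiers of 161, 197 or 230 bases the open symbols lie between 0 and 3.16 FPKM.

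The other 6 of these 12 identifiers were at or close to 0 before chilling. EPlOING00000038693, with 161 bases, had 513 FPKM in DC90 and 276 FPKM in 9311 at 36 h, against 1.59 FPKM in DC90 and 0.526 FPKM in 9311 at 0 h. In reads this is 874 in DC90 and 485 in 9311 at 36 h, against 3 in DC90 and 1 in 9311 at 0 h. The size of the difference between times is poorly bounded, since the 0 h values rest on so few reads. The ratio was 525 in 9311, with an interval from 93.8 to 20780. EPlOING00000039252, also with 161 bases, had 258 FPKM in DC90 and 177 FPKM in 9311 at 36 h, against 0.530 FPKM in DC90 and 3.16 FPKM in 9311 at 0 h. The 0 h values stand on 1 read in DC90 and 6 reads in 9311, and the 9311 ratio was 56.1 (25.5 to 154). EPlOING00000039150, the third of this length, had 97.5 FPKM in DC90 and 55.8 FPKM in 9311 at 36 h, against 1.06 FPKM in DC90 and 1.05 FPKM in 9311 at 0 h. Before chilling it had 2 reads in each line, and the interval of DC90 over 9311 there was 0.0730 to 13.9.

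EPlOING00000006152, with 230 bases, had 149 FPKM in DC90 and 116 FPKM in 9311 at 36 h, against 0 in DC90 and 0.368 FPKM in 9311 at 0 h. With the DC90 value at 0 h set to a floor of 3 reads, it was 134-fold higher at 36 h in DC90. The counting interval of this ratio begins at 108. EPlOING00000041013, with 197 bases, had 164 FPKM in DC90 and 112 FPKM in 9311 at 36 h, against 0.434 FPKM in DC90 and 0.860 FPKM in 9311 at 0 h. At 0 h these are 1 read in DC90 and 2 reads in 9311. EPlOING00000040512, also with 197 bases, had 73.9 FPKM in DC90 and 64.3 FPKM in 9311 at 36 h, against 0 in DC90 and 2.15 FPKM in 9311 at 0 h. Its ratio was 56.8 in DC90 with the floor of 3 reads, and 29.9 (12.5 to 93.5) in 9311. The counting interval in DC90 begins at 45.7.

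The 168 differ in how far they were present before chilling. Above 0 in both 0 h libraries were 129, listed at 0 in 1 of them 24, and listed at 0 in both 15. In DC90 at 0 h, 30 were listed at 0 and 58 had 1 to 3 reads, against 24 and 55 in 9311 at 0 h. The 15 listed at 0 in both had a median of 13 reads in each 36 h library, and a level at 0 h below the depth of the libraries would also be listed as 0. Only 3 of the 15 reached 20 reads in both 36 h libraries.

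EPlOING00000013282, with 86 bases, is 1 of these 3 and had 61.5 FPKM in DC90 and 56.5 FPKM in 9311 at 36 h, from 56 and 53 reads, against 0 reads in both lines at 0 h. With the floor of 3 reads it was 20.7-fold higher in DC90 and 19.1-fold higher in 9311. Its counting intervals begin at 16.3 and 15.0. EPlOING00000030275, with 132 bases, had 70.2 FPKM in DC90 and 28.5 FPKM in 9311 at 36 h, from 98 and 41 reads, against 0 reads in both lines at 0 h. It was at least 36.2-fold higher at 36 h in DC90 and at least 14.8-fold higher in 9311. EPlOING00000040230, with 197 bases, had 13.9 FPKM in DC90 and 15.8 FPKM in 9311 at 36 h, from 29 and 34 reads, against 0 reads at 0 h. At the other end of the 15, EPlOING00000026156, with 22 bases, had 3 reads in each 36 h library, and the counting interval of its ratio begins below 1 in both lines. These last identifiers were chosen after their values were seen, as were those of the next paragraphs that belong to a subgroup and not to the 12 deepest.

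Counting intervals above 4 in both lines were found for 20 identifiers. They summed to 3101 reads in DC90 and 2340 in 9311 at 36 h, against 32 in DC90 and 50 in 9311 at 0 h. Of the 20, 16 are at least 100 bases long, and 14 were higher in DC90 than in 9311 at 36 h. All 20 are among the 79 with at least 20 reads in both 36 h libraries. Of those 79, 35 are at least 100 bases long and 39 were higher in DC90. Intervals above 4 ask for many reads at 36 h, and depth moved with length. The part of depth in these counts was not tested. Besides those already given, EPlOING00000021685, with 39 bases, is the shortest, at 177 FPKM in DC90 and 139 FPKM in 9311 at 36 h, against 2.19 FPKM in DC90 and 4.35 FPKM in 9311 at 0 h. EPlOING00000013750, with 135 bases, had 52.5 FPKM in DC90 and 38.0 FPKM in 9311 at 36 h, against 5.06 FPKM in DC90 and 1.25 FPKM in 9311 at 0 h. EPlOING00000038009, with 100 bases, had 51.0 FPKM in DC90 and 48.6 FPKM in 9311 at 36 h, against 3.42 FPKM in DC90 and 3.39 FPKM in 9311 at 0 h. The values of the lines were nearly equal at both times, with 54 and 53 reads at 36 h and 4 reads each at 0 h. So few reads at 0 h leave a line difference before chilling unresolved.

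EPlOING00000035543, with 115 bases, had 36.2 FPKM in DC90 and 36.7 FPKM in 9311 at 36 h, against 0.743 FPKM in DC90 and 2.95 FPKM in 9311 at 0 h. EPlOING00000002538, with 90 bases, had 35.7 FPKM in DC90 and 33.6 FPKM in 9311 at 36 h, against 0 in DC90 and 1.88 FPKM in 9311 at 0 h. Both had nearly the same level in DC90 and 9311 after chilling. EPlOING00000029612, with 98 bases, had 31.8 FPKM in DC90 and 90.8 FPKM in 9311 at 36 h, against 0.871 FPKM in DC90 and 1.73 FPKM in 9311 at 0 h. In contrast to them it was lower in DC90 at 36 h, with a ratio of DC90 over 9311 of 0.351 (0.229 to 0.525).

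A more moderate response was found in 41 identifiers, where the ratio lay between 2-fold and 4-fold in both lines. Their median FPKM was 35.6 in DC90 and 35.1 in 9311 at 36 h, against 13.4 in DC90 and 12.8 in 9311 at 0 h. None of the 41 was listed at 0, which follows from the FPKM limit and the 1 added to each value. At least 20 reads in all 4 libraries were found for 12 of the 168, a condition that leaves out identifiers near 0 before chilling and so keeps ratios moderate. EPlOING00000025767, with 91 bases, had 90.4 FPKM in DC90 and 72.6 FPKM in 9311 at 36 h, against 25.3 FPKM in DC90 and 26.1 FPKM in 9311 at 0 h. Its ratio was 3.57 (2.29 to 5.71) in DC90 and 2.78 (1.78 to 4.48) in 9311. EPlOING00000011169, with 45 bases, had 136.5 FPKM in DC90 and 136.6 FPKM in 9311 at 36 h, against 51.2 FPKM in DC90 and 47.1 FPKM in 9311 at 0 h. The lines were within counting error of each other at both times.

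EPlOING00000040344, with 66 bases, had 115 FPKM in DC90 and 90.3 FPKM in 9311 at 36 h, against 34.9 FPKM in DC90 and 34.7 FPKM in 9311 at 0 h. EPlOING00000029779, with 170 bases, had 35.6 FPKM in DC90 and 29.1 FPKM in 9311 at 36 h, against 14.6 FPKM in DC90 and 14.0 FPKM in 9311 at 0 h. Both are examples of transcripts with 25 or more reads in every library and like values in the 2 lines. EPlOING00000035771, with 76 bases, had 175 FPKM in DC90 and 97.8 FPKM in 9311 at 36 h, against 53.9 FPKM in DC90 and 41.3 FPKM in 9311 at 0 h. It was higher in DC90 at 36 h by a ratio of 1.79 (1.36 to 2.39), while its ratio at 0 h was 1.31 (0.834 to 2.07).

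The share of pool identifiers that met the rule varied little with recovered length. It was 71 of 198 under 60 bases (35.9%), 35 of 107 from 60 to 79 bases (32.7%), 22 of 62 from 80 to 99 bases (35.5%), 37 of 90 from 100 to under 200 bases (41.1%) and 3 of 9 at 200 bases or more (33.3%). Among the 168, the median log2 ratio in DC90 was 2.04, 2.21, 2.37, 2.90 and 3.45 from the shortest to the longest class. In 9311 it was 2.43, 1.97, 2.17, 2.96 and 3.22, so the order below 100 bases differed between the lines. At least 8-fold in both lines were 12 of the 71 shortest (16.9%), 3 of the 35 from 60 to 79 bases (8.57%), 5 of the 22 from 80 to 99 bases (22.7%), 16 of the 37 from 100 to under 200 bases (43.2%) and 1 of the 3 longest (33.3%). Depth moved with length, at a median of 10 reads in the smaller 36 h library for the shortest and 40 reads for those of 100 to under 200 bases. Its part in the result was not tested.

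**Figure D4:**
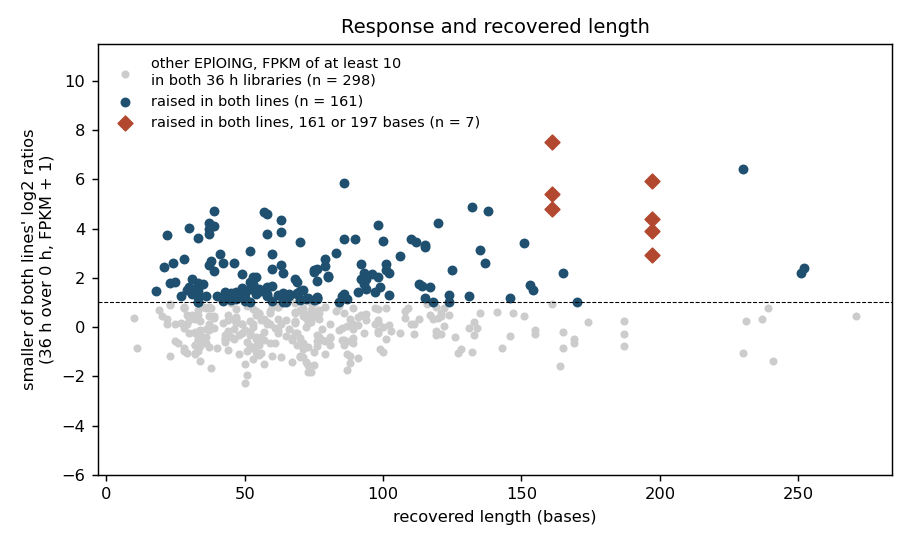
Recovered length in bases (x axis) against the smaller of both lines' log2 ratios of 36 h over 0 h (y axis) for the 466 EPlOING identifiers with an FPKM of at least 10 in both 36 h libraries; grey points are the 298 not chosen, dark points and red diamonds the 168, and the dashed line the limit of 1. The diamonds mark the 7 identifiers of 161 or 197 bases, of which EPlOING00000038693 is the highest point, with log2 ratios of 7.63 in DC90 and 7.51 in 9311.

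Identifiers of 161 and of 197 bases stand out among the strongest responses, a grouping noticed after the values were seen. The 3 of 161 bases are EPlOING00000038693, EPlOING00000039150 and EPlOING00000039252, and together had 1480 reads in DC90 and 894 in 9311 at 36 h, against 6 in DC90 and 9 in 9311 at 0 h. Their summed ratio was 273 (125 to 745) in DC90 and 108 (56.4 to 236) in 9311. The 4 of 197 bases are EPlOING00000040230, EPlOING00000040512, EPlOING00000041013 and EPlOING00000041415, and together had 607 reads in DC90 and 462 in 9311 at 36 h, against 3 in DC90 and 12 in 9311 at 0 h. Their summed ratio was 224 (76.3 to 1089) in DC90 and 41.7 (23.6 to 81.2) in 9311. In both sets the numbers lie near each other, from 38693 to 39252 and from 40230 to 41415. Inside these ranges also lie 2 identifiers of 161 bases and 3 of 197 bases that were not chosen. All 11 identifiers of 197 bases above 0 in any library have numbers from 37008 to 42037, so close numbers there are not particular to the raised ones. The 19 of 161 bases range from 4785 to 44281. EPlOING00000041415, not yet given, had 39.3 FPKM in DC90 and 23.3 FPKM in 9311 at 36 h, against 0.867 FPKM in DC90 and 2.15 FPKM in 9311 at 0 h.

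Other identifiers of the same lengths did not meet the rule. More reads at 36 h than at 0 h in both lines were found for 5 of the 16 others of 161 bases and 3 of the 7 others of 197 bases, 3 of which follow as examples chosen after their values were seen. EPlOING00000039345, with 161 bases, had 16 reads in DC90 and 11 in 9311 at 36 h, against 1 in DC90 and 0 in 9311 at 0 h. EPlOING00000041932, with 197 bases, had 21 reads in DC90 and 16 in 9311 at 36 h, against 1 in DC90 and 0 in 9311 at 0 h. EPlOING00000040302, with 197 bases, had 13 reads in both lines at 36 h, against 1 in DC90 and 0 in 9311 at 0 h. Among identifiers of 161 bases, the 14 with numbers outside 38693 to 39252, EPlOING00000039345 included, summed to 70 reads in DC90 and 93 in 9311 at 36 h, against 41 in DC90 and 46 in 9311 at 0 h. Their summed ratio was 1.89 (1.27 to 2.85) in DC90 and 2.19 (1.52 to 3.19) in 9311. The 7 others of 197 bases summed to 42 reads in DC90 and 31 in 9311 at 36 h, against 3 in each line at 0 h. Their summed ratio was 15.5 (4.95 to 78.1) in DC90 and 11.2 (3.49 to 57.2) in 9311. All of these others failed the rule, by the FPKM limit or by the ratio, so their sums depend on the choice. The 3 examples above missed the FPKM limit and not the ratio limit. At 115 bases, a length with 3 of the 168, the reads of the 20 others summed to 72 in DC90 and 63 in 9311 at 36 h, against 87 in DC90 and 80 in 9311 at 0 h. Whether identifiers of 1 length are copies of each other that share reads was not tested.

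The numbers in the identifiers gave little further grouping. Cut into steps of 4000, the share of pool identifiers that met the rule was lowest from 1 to 4000, at 12 of 54 (22.2%), and highest from 4001 to 8000, at 12 of 21 (57.1%). The step with the most was 28001 to 32000, at 42 of 85 (49.4%). The sources used here do not say whether the numbers follow position, so whether close numbers mean close positions is not known. The stretch of numbers EPlOING00000006096 to EPlOING00000006951 holds 5 of the 168, of 120 to 251 bases, with 517 reads in DC90 and 488 in 9311 at 36 h, against 11 in DC90 and 9 in 9311 at 0 h. EPlOING00000006152, given above, holds most of these reads. How many pool identifiers lie in this stretch was not counted, so 5 is not shown to exceed the pool's share. EPlOING00000006609, with 251 bases, had 20.7 FPKM in DC90 and 24.1 FPKM in 9311 at 36 h, against 3.74 FPKM in DC90 and 1.69 FPKM in 9311 at 0 h. EPlOING00000006787, with 138 bases, had 27.4 FPKM in DC90 and 41.9 FPKM in 9311 at 36 h, against 0 in DC90 and 0.614 FPKM in 9311 at 0 h.

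Consecutive numbers occur in 3 pairs of the 168, and no 2 of the 168 had identical values in all libraries. EPlOING00000003441, with 70 bases, had 41.9 FPKM in DC90 and 36.7 FPKM in 9311 at 36 h, against 2.44 FPKM in DC90 and 2.42 FPKM in 9311 at 0 h. Its neighbour EPlOING00000003442, with 75 bases, had 42.8 FPKM in DC90 and 44.0 FPKM in 9311 at 36 h, against 5.69 FPKM in DC90 and 7.91 FPKM in 9311 at 0 h. Levels at 36 h were thus alike within this pair. The second pair is EPlOING00000027380 and EPlOING00000027381, with 38 and 33 bases. At 36 h the first was at 19.9 FPKM in DC90 and 45.9 FPKM in 9311, from 8 and 19 reads. The second was at 57.3 FPKM in DC90 and 41.7 FPKM in 9311, from 20 and 15 reads. The counting intervals of DC90 over 9311 at 36 h were 0.164 to 1.04 and 0.669 to 2.88. Both hold 1, so no line difference is shown. At 0 h the first was at 2.25 FPKM in DC90 and 0 in 9311, and the second at 18.1 FPKM in DC90 and 12.8 FPKM in 9311. In the third pair, EPlOING00000030330 had 18.0 FPKM in DC90 and 28.4 FPKM in 9311 at 36 h, against 6.10 FPKM in DC90 and 12.1 FPKM in 9311 at 0 h. Its neighbour EPlOING00000030331 had 33.4 FPKM in DC90 and 30.6 FPKM in 9311 at 36 h, against 9.49 FPKM in DC90 and 5.54 FPKM in 9311 at 0 h.

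After chilling, the tolerant and the sensitive line had similar levels of the 168 identifiers. The median log2 ratio of DC90 over 9311 at 36 h was -0.04, with quartiles of -0.46 and 0.35, a range of -1.79 to 2.14 and an SD of 0.65 over identifiers. Over the 298 other EPlOING identifiers of the pool the median was 0.04 and the SD 0.51. At least 2-fold higher in DC90 were 6 of the 168 (3.57%), against 2.68% of the 298 others, and at least 2-fold lower were 12 (7.14%), against 1.68% of the others. For BGIOSGA identifiers with the same FPKM floor the shares were 0.389% higher and 1.93% lower. Median reads at 36 h were 21 in DC90 and 24 in 9311 for the 168, and 21 and 20.5 for the 298 others. The BGIOSGA shares differ in depth from those of the 168. At least 20 reads in both 36 h libraries were found for 1 of the 6 and 3 of the 12, and for 12318 of the 12332 BGIOSGA identifiers. The counting interval of the ratio left out 1 for 29 of the 168 (17.3%), of which 15 were higher and 14 lower in DC90, and for 32 of the 298 others (10.7%). The rule asks for an FPKM of at least 10 in both 36 h libraries, which keeps identifiers with a large line difference at low levels out of both sets.

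**Figure D5:**
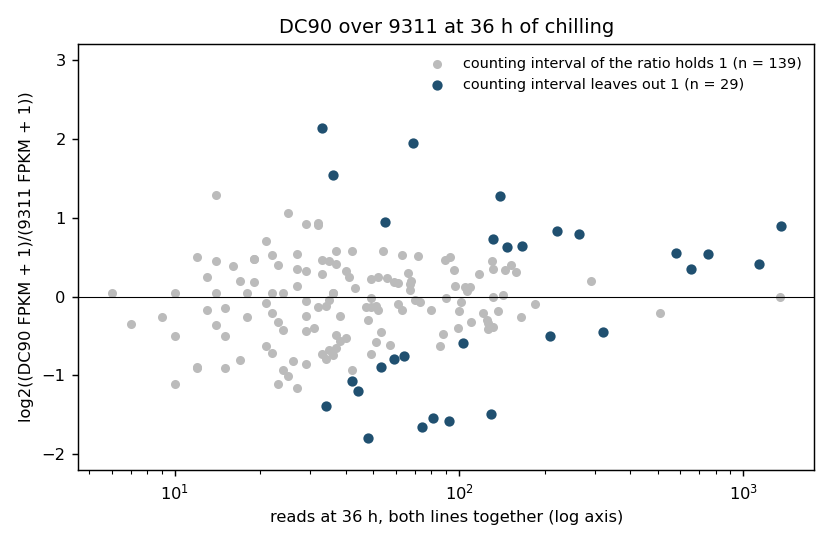
Reads at 36 h in both lines together (x axis, log scale) against the log2 ratio of DC90 over 9311 at 36 h (y axis, FPKM + 1) for the 168 identifiers; dark points are the 29 whose counting interval leaves out 1. The dark points split into 15 above 0 and 14 below, between 2.14 and -1.79, and the grey cloud narrows as reads increase.

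Higher in DC90 at 36 h were all 3 identifiers of 161 bases and, by their sum, those of 197 bases. The 161-base set was 1.71-fold higher in DC90 by summed reads (1.57 to 1.86) and the 197-base set 1.35-fold (1.20 to 1.53). Within the 197-base set the intervals lay above 1 for EPlOING00000041013 and EPlOING00000041415, while EPlOING00000040512 had a ratio of 1.15 (0.908 to 1.46) and EPlOING00000040230 of 0.879 (0.516 to 1.49). EPlOING00000038693 was 1.86-fold higher (1.66 to 2.08) and EPlOING00000027012 1.33-fold higher (1.18 to 1.49). By ratio, 2 identifiers of fewer reads were highest. EPlOING00000031899, with 83 bases, had 62.6 FPKM in DC90 and 15.5 FPKM in 9311 at 36 h, from 55 and 14 reads, against 1.03 FPKM in DC90 and 1.02 FPKM in 9311 at 0 h. At 0 h each line had 1 read, which leaves the line difference before chilling unresolved (interval 0.0128 to 79.1). The ratio of DC90 over 9311 at 36 h was 4.05 (2.22 to 7.88). EPlOING00000046402, with 37 bases, had 69.0 FPKM in DC90 and 14.9 FPKM in 9311 at 36 h, from 27 and 6 reads, against 0 reads in both lines at 0 h. Its ratio of DC90 over 9311 at 36 h was 4.64 (1.88 to 13.7).

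Higher in DC90 at 36 h with more reads were also EPlOING00000025630 and EPlOING00000004231. EPlOING00000025630, with 99 bases, had 95.5 FPKM in DC90 and 61.2 FPKM in 9311 at 36 h, against 12.1 FPKM in DC90 and 18.8 FPKM in 9311 at 0 h. EPlOING00000004231, with 94 bases, had 89.5 FPKM in DC90 and 57.6 FPKM in 9311 at 36 h, against 14.5 FPKM in DC90 and 18.9 FPKM in 9311 at 0 h. In both, DC90 was the higher line at 36 h and gave the lower value at 0 h, though the counting intervals of DC90 over 9311 at 0 h hold 1.

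Lowest in DC90 relative to 9311 at 36 h was EPlOING00000028667, with 84 bases, at 11.3 FPKM in DC90 and 41.5 FPKM in 9311 at 36 h, against 5.08 FPKM in DC90 and 6.05 FPKM in 9311 at 0 h. The line ratio at 36 h was 0.271 (0.120 to 0.555), and its counting interval of 36 h over 0 h in DC90 reaches below 1. EPlOING00000004907, with 76 bases, had 21.1 FPKM in DC90 and 68.8 FPKM in 9311 at 36 h, against 3.37 FPKM in DC90 and 3.35 FPKM in 9311 at 0 h. The line ratio was 0.307 (0.168 to 0.536), and both lines had 3 reads at 0 h. EPlOING00000038689, with 112 bases, had 18.6 FPKM in DC90 and 57.3 FPKM in 9311 at 36 h, against 0.762 FPKM in DC90 and 1.51 FPKM in 9311 at 0 h. EPlOING00000027345, with 49 bases, had 38.6 FPKM in DC90 and 114 FPKM in 9311 at 36 h, against 12.2 FPKM in DC90 and 6.92 FPKM in 9311 at 0 h. At 0 h the counting intervals of DC90 over 9311 held 1 for all 4, from 1 to 7 reads per library, which leaves their line difference before chilling unresolved.

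Before chilling the lines were level at the median as well, with wider scatter. The median log2 ratio of DC90 over 9311 at 0 h was 0.0053 and the SD over identifiers 1.04. At least 2-fold higher in DC90 were 21 (12.5%) and lower 26 (15.5%), against 8.39% and 9.4% of the 298 others and 0.592% and 0.56% of the BGIOSGA identifiers with the same FPKM floor at 36 h. At these low reads the counting interval left out 1 for 8 of the 168 (4.76%), with 2 higher and 6 lower in DC90, and for 45 of the 298 others (15.1%). The 168 had a median of 3 reads in DC90 and 4 in 9311 at 0 h, against 20 in DC90 and 21 in 9311 for the 298 others. EPlOING00000026055, the highest of all, was lower in DC90 at 0 h by a ratio of 0.423 (0.340 to 0.524) and level at 36 h, with a ratio of 0.996 (0.894 to 1.11). EPlOING00000047054 was higher in DC90 at 0 h by a ratio of 1.55 (1.17 to 2.07), and at 36 h the ratio was 0.867 (0.725 to 1.04). EPlOING00000030367, with 252 bases the longest of the 168, had 21.0 FPKM in DC90 and 27.7 FPKM in 9311 at 36 h, against 1.02 FPKM in DC90 and 4.37 FPKM in 9311 at 0 h. It was lower in DC90 at 0 h, with 3 reads against 13 in 9311.

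At the limits of the rule, values just inside and just outside are close together. EPlOING00000031920 was inside, with log2 ratios of 1.18 in DC90 and 1.003 in 9311. EPlOING00000003425 was outside, with log2 ratios of 1.57 in DC90 and 0.99 in 9311, although it had 259 FPKM in DC90 and 217 FPKM in 9311 at 36 h. EPlOING00000033390 was outside as well, with a log2 ratio of 0.99 in 9311 from 8 reads at 36 h and 4 reads at 0 h. For the FPKM limit at 36 h, EPlOING00000040610 was inside, with 20.3 FPKM in DC90 and 10.3 FPKM in 9311, and EPlOING00000033694 was inside, with 10.3 FPKM in DC90 and 15.0 FPKM in 9311. EPlOING00000028004 was outside with 14.4 FPKM in DC90 and 9.97 FPKM in 9311, as was EPlOING00000026828 with 15.3 FPKM in DC90 and 9.92 FPKM in 9311.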

How the data were processed

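The data are 4 RNA-seq libraries, 1 per line and time, from RNA pooled from 3 replicates, per the labels' protocols. The authors deposited FPKM values for all identifiers in 1 table. Per the submitters' processing notes, HTSeq 0.6.1 was among the tools. No source used here names an aligner, a build or an annotation.

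FPKM was used as deposited, with a pseudocount of 1 on the log2 scale, which understates ratios of low values. Ratios with intervals carry no pseudocount. Since FPKM values come from whole reads, length and library total, steps between values gave each total. For 34043 of the 34043 identifiers above 0, a smallest length up to 30000 bases made all reads whole, with 1e-06 as tolerance. Where reads and length have a common factor, the smallest values were taken. The counting interval of a ratio is the exact 95% Clopper-Pearson interval from both libraries' reads. PCR reads are not independent molecules, so intervals cover counting error only. A value of 0 was set to 3 reads per library to give a ratio, and the counting interval of that ratio can begin lower. The recovery was tested on simulated data.

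With 1 library per group no test between groups was run, and comparisons use a limit of 2-fold. The text names the 12 identifiers with most reads in the smaller 36 h library, the 4 with the largest smaller log2 ratio, the 2 highest and 2 lowest line ratios at 36 h from 20 reads upward in the higher 36 h library, those next to the limits, those with consecutive numbers, and the 2 EPlOING identifiers that were lowest in both lines. Others were chosen after their values were seen. The identifiers and the lists were chosen with earlier results of these data known. None of the table's identifiers was found in the reference gene table. Alternatives were other pseudocounts, low-value limits, scalings and fold limits. Python 3.11.15, numpy 2.4.6, pandas 2.3.3, scipy 1.17.1 and matplotlib 3.10.9 were used.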

Additional observations from a re-analysis of the deposited data

How the results depend on the processing

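The counts depended on the limits and little on the scaling. Of EPlOING identifiers, 168 were raised in both lines, 307 in DC90, 299 in 9311, and 55 were lowered in both lines. Without a low-value limit these were 591, 1299, 1248 and, rounded, 2.0e+02. With an FPKM of at least 20 they were 98, 169, 165 and 30. With a limit of 4-fold they were 74, 156, 174 and 9. With at least 20 reads they were 79, 122, 121 and 27. BGIOSGA identifiers raised in both lines numbered 1914, and 536 with the 4-fold limit. Without a low-value limit they were 2512, with an FPKM of at least 20 they were 1508 and with at least 20 reads 1913. Pseudocounts of 0.1 and 5 gave 2026 and 1507, median-of-ratios factors 1730 and equal FPKM sums 2137. Fewer or more identifiers can pass such limits by construction. With pseudocounts of 0.1 and 5 the count of 168 was 173 and 131, and all 168 remained with 0.1. With median-of-ratios factors it was 155, all among the 168, and with equal FPKM sums 179, including all 168. The median log2 ratios of 36 h over 0 h stayed between 2.18 and 2.48 in DC90 and between 2.33 and 2.63 in 9311, and that of DC90 over 9311 at 36 h between -0.10 and -0.0006. At 0 h the last was 0.0053, and 0.0101 with a pseudocount of 0.1, -0.015 with median-of-ratios factors and -0.034 with equal FPKM sums, so it has no firm sign.

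Without the 2 identifiers with most reads in the smaller 36 h library, EPlOING00000026055 and EPlOING00000027012, the summed FPKM at 36 h was 5.46-fold that at 0 h in both DC90 and 9311, in place of 5.03 and 4.07. This alternative was chosen after seeing the data. No paired analysis was possible because each group has 1 library and the labels give no replicate numbers, and no replicate could be left out. A fit with line as a block was not run. Depth limits the short identifiers most: 39 of the 168 had under 10 reads in a 36 h library.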

Other observations

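At least 2-fold lower at 36 h in both lines were 55 EPlOING identifiers. The lowest ratios in both lines belonged to 2 of them. One was EPlOING00000016608, with 58 bases, at 1.63 FPKM in DC90 and 0 in 9311 at 36 h, against 39.8 FPKM in DC90 and 38.0 FPKM in 9311 at 0 h. These are 1 read in DC90 and 0 in 9311 at 36 h, against 27 in DC90 and 26 in 9311 at 0 h. EPlOING00000031917, with 73 bases, had 0 reads in both lines at 36 h, against 10 in DC90 and 11 in 9311 at 0 h. Levels before chilling were alike in both lines for these identifiers.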
